A study of Mus musculus with 30 samples.

Results

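Mouse embryonic stem cells that lack Mettl14 and carry the 13RK form of METTL14 (KO+13RK) were compared with the same knockout without any METTL14 put back (KO), to ask which m6A peaks are present with the arginine mutant protein and absent without METTL14. The data were lists of called m6A peaks, each row a bin of 100 nt on 1 strand of a gene, with 3 lists for KO+13RK and 3 for KO. A bin or gene was counted as restored when it was called in all 3 KO+13RK lists and in none of the 3 KO lists, and as removed in the reverse case. These names state the rule and not a mechanism. Of 30194 bins called in any of the 6 lists, 2017 were restored (6.68%), 670 were removed (2.22%) and 799 were called in all 6 (2.65%). Of 10547 genes with a called bin, 551 were restored (5.22%), 171 were removed (1.62%) and 1075 were called in all 6 (10.2%). The series as a whole held 62091 bins and 13765 genes in 15 lists.

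All lines were C57BL/6 embryonic stem cells, grown with leukemia inhibitory factor on gelatin. KO+13RK, KO+5RK and KO+WT carry the Mettl14 knockout together with METTL14 as the 13RK mutant, the 5RK mutant or the unmutated protein. The labels call both mutants deficient in arginine methylation. KO carries the knockout alone and WT has intact Mettl14. The labels do not say whether a line is 1 clone, how METTL14 was put back, or whether replicates are separate cultures, so the spread between lists may be technical. KO+5RK, KO+WT and WT, with 3 lists each, served as 9 lists that the rule did not use.

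METTL3 is the catalytic subunit of the complex that writes m6A on messenger RNA as it is made, and METTL14 is the partner that helps it hold RNA. The complex prefers adenosines in a short consensus with GGAC at its core, and m6A in mammalian messenger RNA is concentrated in long internal exons, around stop codons and in 3′ ends. The first transcribed nucleotide next to the cap can carry a related mark, m6Am, which antibodies against m6A also bind and which another enzyme, PCIF1, writes. Protein arginine methyltransferases methylate arginines, often in disordered tails that bind RNA, and a change of arginine to lysine keeps the charge but removes the site for these enzymes.

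The bins that carry the comparison are shown by short stretches of the transcribed strand, from RefSeq (GRCm38.p6), with GGAC in capitals. Only bins inside the 300 nt windows around annotated starts could be read. These were 7 restored, 17 removed and 12 bins called in all 6 lists. The window could belong to another gene or to the other strand. The stretches therefore illustrate a small share of bins, which need not lie near the start of their own gene. The first 3 lie in restored bins and the last in the removed bin with the highest rank of enrichment.
Hnrnpdl, chr5:100039242-100039271, minus strand: ctcaaggcaagagGGACtgtggccctgcca
Cox10, chr11:63964052-63964081, minus strand: cagacagacacacGGACagcactgccctgg
Sec24c, chr14:20694760-20694789, plus strand: atgcccctgctatGGACctttcatttcttt
Trp53, chr11:69580399-69580428, plus strand: cttcagttcattgGGACcatcctggctgta
GGAC on the transcribed strand was present in 5 of the 7 restored bins (71.4%), 6 of the 17 removed bins (35.3%) and 5 of the 12 called in all 6 lists (41.7%). On the other strand these shares were 42.9%, 23.5% and 41.7%. Adjacent bins of Hnrnpdl count separately among the 5 restored bins. Of all 365 bins that could be read 47.1% held GGAC on the transcribed strand, against 34.5% on the other strand. Of the last 100 bases of all 32851 start windows 32.0% held it, against 31.0% on the other strand. Those 100 bases include bases upstream of the annotated start, so they are not a like baseline for transcribed bins. A match is a description of these letters and not a mapped methylation site.

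Annotated starts are shown for bins that overlap the transcribed end of a start window, since removed bins often lay there, with the first 15 transcribed bases in capitals. A bin can begin after the start itself, as in Trp53, where the RefSeq gene span used for distances also begins a little upstream of the start shown.
Trp53 (removed bin), chr11:69580344-69580373, plus strand: tgctgggattgggacTTTCCCCTCCCACGT
Ier3 (removed bin), chr17:35821698-35821727, plus strand: tctctgcacaacgtcTAAATTATGTGCCAC
Malat1 (bin in all 6 lists), chr19:5802658-5802687, minus strand: ctccgggctctgcgtCAGGCATTCAGGCAG
Fancl (restored bin), chr11:26387069-26387098, plus strand: tttctcctgctactaAGCAGACCAGTTGGC
The annotated first base was A at 13 of 37 such starts for removed bins (35.1%), 11 of 34 for bins called in all 6 lists (32.4%), 3 of 5 for restored bins and 34.4% of all start windows.

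KO+13RK lists held more m6A bins than KO lists, in more genes. The 3 KO+13RK lists had 9739, 9581 and 10964 distinct bins, against 6323, 8401 and 8585 in the KO lists. The lowest KO+13RK list lay above the highest KO list. The means were 10095 ± 757 bins in KO+13RK and 7770 ± 1256 in KO (SD, n = 3 each), a ratio of 1.30 (two-sided exact permutation test, p = 0.1, the smallest that 3 lists against 3 allow). Genes with a bin numbered 5221, 5032 and 5570 in KO+13RK, against 3697, 4690 and 4733 in KO, again with no overlap (exact permutation p = 0.1). No comparison of 3 lists with 3 can pass 0.05. With all lists reduced to the length of the shortest, the gene numbers overlapped and differed by 92 (exact permutation p = 0.4).

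The place of the bins within genes also differed. A bin was placed by the distance of its midpoint from the ends of the RefSeq gene, measured along the gene with introns, which was possible for 89.4% of bins. Within 2000 nt of the gene end, KO+13RK lists had 2782, 2450 and 3285 bins, against 1075, 1241 and 1261 in KO lists, a ratio of means of 2.38. Within 500 nt of the gene start the order was the other way, with 575, 748 and 583 bins in KO+13RK and 932, 1368 and 1410 in KO. Elsewhere in the gene there were 5436, 5209 and 6053 bins in KO+13RK and 3752, 5089 and 5160 in KO. None of these groups overlapped (exact permutation p = 0.1 for each). The ratio of means at the start was 0.514, so start-proximal bins were fewer in KO+13RK in absolute number while its lists were longer.

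**Figure D1:**
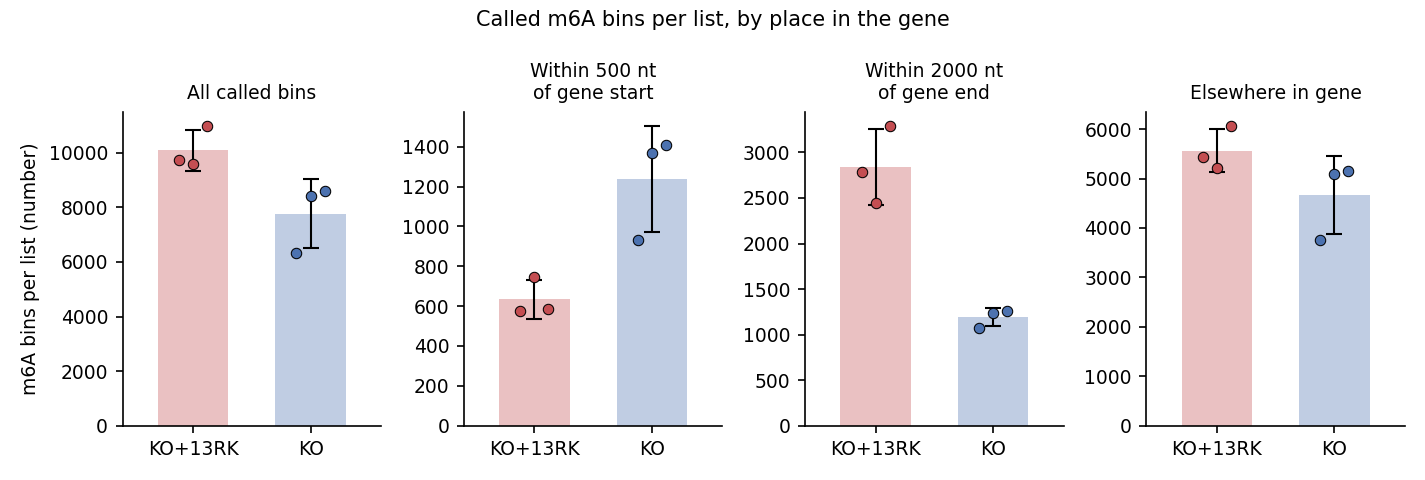
Called m6A bins per list (number) in KO+13RK and KO, for all bins and for bins within 500 nt of the gene start, within 2000 nt of the gene end or elsewhere; points are the 3 lists, bars the mean and whiskers the SD. KO+13RK lists lie above KO lists in every panel except the one for the gene start, where they lie at 575 to 748 and KO lists at 932 to 1410.

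As shares of placed bins, start-proximal bins were 6.61%, 9.03% and 5.95% in KO+13RK and 16.6%, 18.2% and 18.4% in KO. End-proximal bins were 32.0%, 29.6% and 33.5% in KO+13RK and 19.1%, 16.5% and 16.5% in KO. Both shares differed without overlap (exact permutation p = 0.1), also in lists of equal length, where the differences were -11.1 and 14.1 percentage points. The other lines with METTL14 had 6.26 ± 0.912% (KO+5RK), 5.78 ± 1.6% (KO+WT) and 4.89 ± 0.596% (WT) of placed bins near the start (SD, n = 3 each).

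Most of the 30194 bins met neither rule. Just outside the rule, 2679 bins were called in 2 KO+13RK lists and no KO list, and 205 in 3 KO+13RK lists and 1 KO list. On the removed side, 1650 bins were called in no KO+13RK list and 2 KO lists, and 454 in 1 KO+13RK list and 3 KO lists. With 1 list left out, fewer lists must meet the rule, and the counts rose. Restored bins numbered 2931, 3099 and 2700 without KO+13RK list 1, 2 or 3, but only 2057 to 2114 without a KO list. Removed bins numbered 1492, 1096 and 1072 without KO list 1, 2 or 3, but only 788 to 858 without a KO+13RK list.

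Restored bins lay more often near gene ends, and removed bins more often near starts. Of 1777 restored bins that could be placed, 721 (40.6%) lay within 2000 nt of the gene end and 15 (0.844%) within 500 nt of the start. Of 600 removed bins, 69 (11.5%) lay near the end and 149 (24.8%) near the start. Of 665 bins called in all 6 lists, 135 (20.3%) lay near the end and 132 (19.8%) near the start, and over all placed bins the shares were 26.2% and 10.6%. The median distance to the gene end was 2624.5 nt for restored bins and 9352.5 nt for removed bins. These positions follow from the differences between the same lists and are given as a description, with no test of their own.

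**Figure D2:**
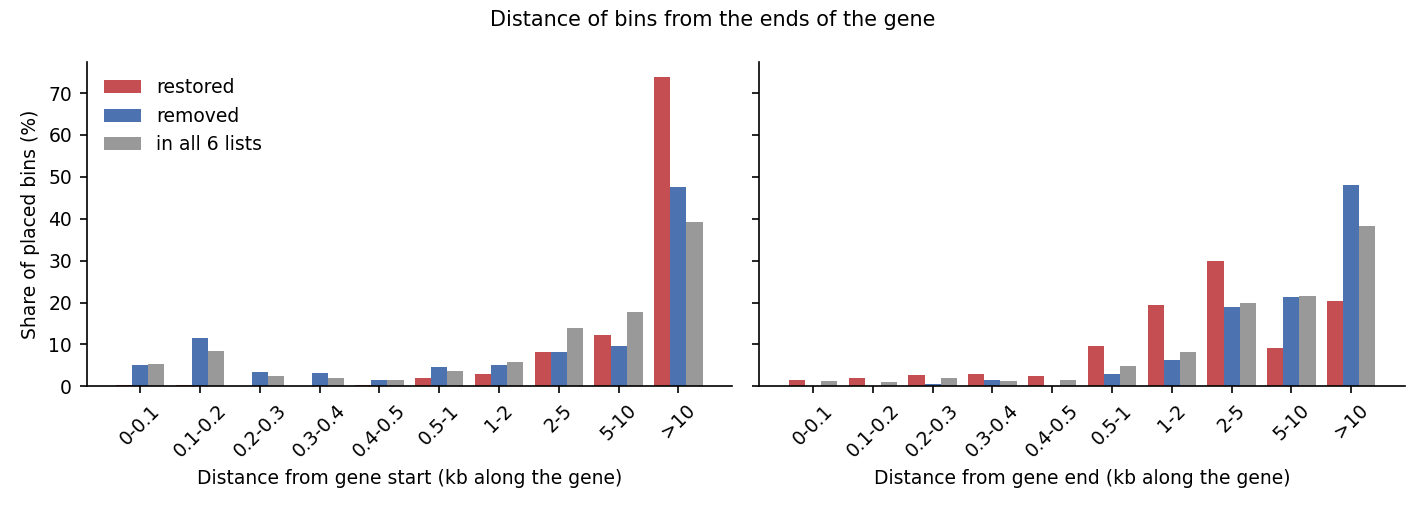
Share of placed bins (%) by distance from the gene start (left) and from the gene end (right), in kb along the gene, for restored bins, removed bins and bins called in all 6 lists. Removed bins are most frequent among the start-proximal classes at 0.1 to 0.2 kb (11.5%), while 19.4% of restored bins lie 1 to 2 kb from the gene end.

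Restored bins often stood next to each other. Another restored bin lay within 100 nt of 798 of them (39.6%). Of the 670 removed bins, 118 (17.6%) had another removed bin that close. The restored class was the larger, with 2017 bins, 86 of them in Gm20388, and these shares make no allowance for that. A bin of any KO list lay within 100 nt of 207 restored bins (10.3%), and a bin of any KO+13RK list within 100 nt of 130 removed bins (19.4%). Merging bins that overlap gave 1942 restored and 654 removed regions. The authors' enrichment value of restored bins was near the middle of the list, at a median percentile of 45.8, 44.4 and 45 in the 3 KO+13RK lists. Removed bins stood at 29.2, 32.2 and 33.4 in the 3 KO lists.

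Bins restored with 13RK were also called in the lines that the rule did not use. Restored bins were called in 87.4%, 85.5% and 80.2% of cases in the KO+5RK lists, 87.8%, 90.4% and 89.0% in the KO+WT lists, and 92.4%, 90.7% and 90.6% in the WT lists. Removed bins were called in 18.7%, 15.2% and 10.1% of cases in the KO+5RK lists, 22.8%, 31.3% and 16.6% in the KO+WT lists, and 27%, 32.1% and 32.1% in the WT lists. The mean over the 9 lists was 88.2% for restored and 22.9% for removed bins, a difference of 65.3 percentage points that was positive in 9 of 9 lists (two-sided exact sign-flip permutation test over lists, p = 0.00391, the smallest that 9 lists allow). In lists of equal length the means were 78.3% for restored and 11.2% for removed bins. Genes gave 88.4% for restored and 43.2% for removed, higher in 9 of 9 lists (exact sign-flip permutation p = 0.00391). Lists of 1 line share their cells, so the 9 lists are 3 lines and not 9 independent ones.

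**Figure D3:**
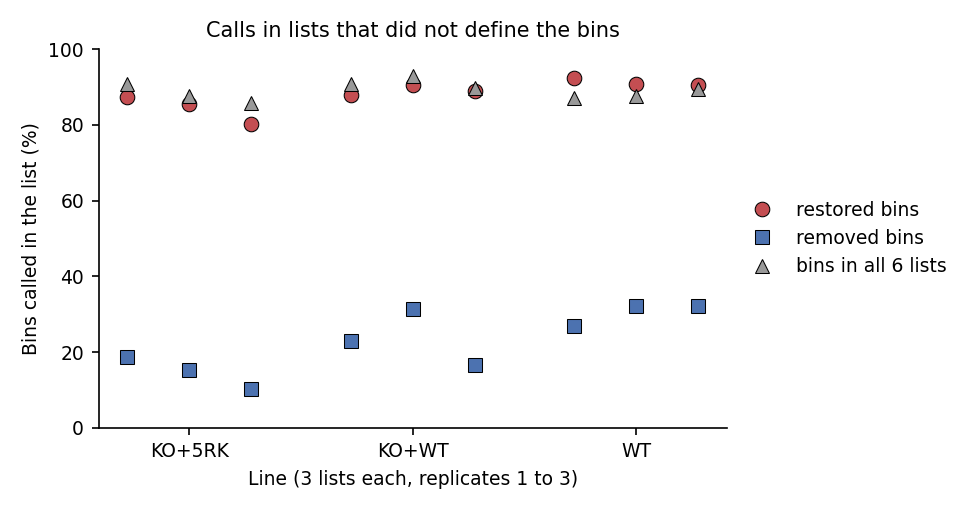
Share of restored bins, removed bins and bins of all 6 lists (%) that were called in each of the 9 lists of KO+5RK, KO+WT and WT, none of which defined the bins. Restored bins lie between 80.2% and 92.4%, beside bins of all 6 lists at 85.7% to 93.0%, and removed bins between 10.1% and 32.1%.

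Among the restored bins, 1704 (84.5%) were called in all 3 WT lists, 1567 (77.7%) in all 3 KO+WT lists and 1362 (67.5%) in all 3 KO+5RK lists. All 9 lists held 1179 of them (58.5%), and 6 were in none. Removed bins were split: 115 (17.2%) were called in all 3 WT lists and 370 (55.2%) in no WT list, and 260 (38.8%) were in none of the 9 lists. Of the 149 removed bins near a gene start, 13 (8.72%) were in all 3 WT lists and 88 (59.1%) in none.

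Restored bins fell in 1366 genes, and only part of these were restored as genes. Conversely, 140 of the 551 restored genes held no restored bin, among them Uhrf2, Xpc and Lin28a. No single bin of those genes was called in all 3 KO+13RK lists. Of the 1366, 411 had no bin in any KO list, 587 had a bin in 1 or 2 KO lists and 368 had a bin in all 3, at another place in the gene. Most, 974, held 1 restored bin, 284 held 2 and 108 held 3 or more. Removed bins fell in 523 genes, and 145 genes held both kinds. In 34 genes a removed bin lay within 500 nt of the start and a restored bin farther along, among them Ythdf3 (a reader of m6A), Hspa5 (the endoplasmic reticulum chaperone BiP), Txnip (an inhibitor of thioredoxin) and Trim71 (a stem cell protein that represses messenger RNAs). Ythdf3 shows the pattern: its removed bin was centred 114.5 nt from the start and called in no list of KO+5RK, KO+WT or WT, and its restored bin lay 21114.5 nt from the start and was called in 2 KO+5RK, 3 KO+WT and 3 WT lists. Ythdf3, Hspa5, Txnip and Trim71 were picked from the 34 after their values were seen.

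By gene, 845 genes (8.01% of 10547) had more bins in each KO+13RK list than in any KO list, and 272 (2.58%) had fewer. The genes with the most restored bins were long annotated loci that also span other genes. Gm20388 held 86 restored bins over 4402900 nt of chromosome 8, of which 49 lay inside 14 other RefSeq genes, so the gene of origin of those bins is uncertain. Fgfr2 (a fibroblast growth factor receptor) held 27 over 2259300 nt of chromosome 7 with 8 of them inside 5 other genes, and Gm26904 held 14. No restored bin of Gm20388, Fgfr2 or Gm26904 could be placed within a RefSeq gene of that name. The gene of origin is therefore uncertain for all of them.

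Apart from these, Fem1b, a substrate receptor of a ubiquitin ligase, had the most restored bins. Fem1b had 7 bins in each KO+13RK list, against 1, 1 and 2 in the KO lists, and 7 of its bins on chromosome 9 between 62795522 and 62797621 were restored. The bins lay 3747.5 to 5747.5 nt from the gene end. A removed bin of Fem1b lay among them, 4447.5 nt from the end. Aars, the alanyl-tRNA synthetase, had 8, 8 and 7 bins in KO+13RK, against 1 in each KO list. Its 6 restored bins could not be placed within the RefSeq gene, so their gene of origin is uncertain too. Ap1g1, a subunit of the AP-1 clathrin adaptor, had 4, 5 and 8 bins in KO+13RK and none in KO. Setd5, a SET domain protein, had 6, 5 and 5 bins in KO+13RK, against 1, 3 and 2 in KO. Each of these genes had more bins in every KO+13RK list than in any KO list. They were chosen for their restored bins, so this is no separate result.

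**Figure D4:**
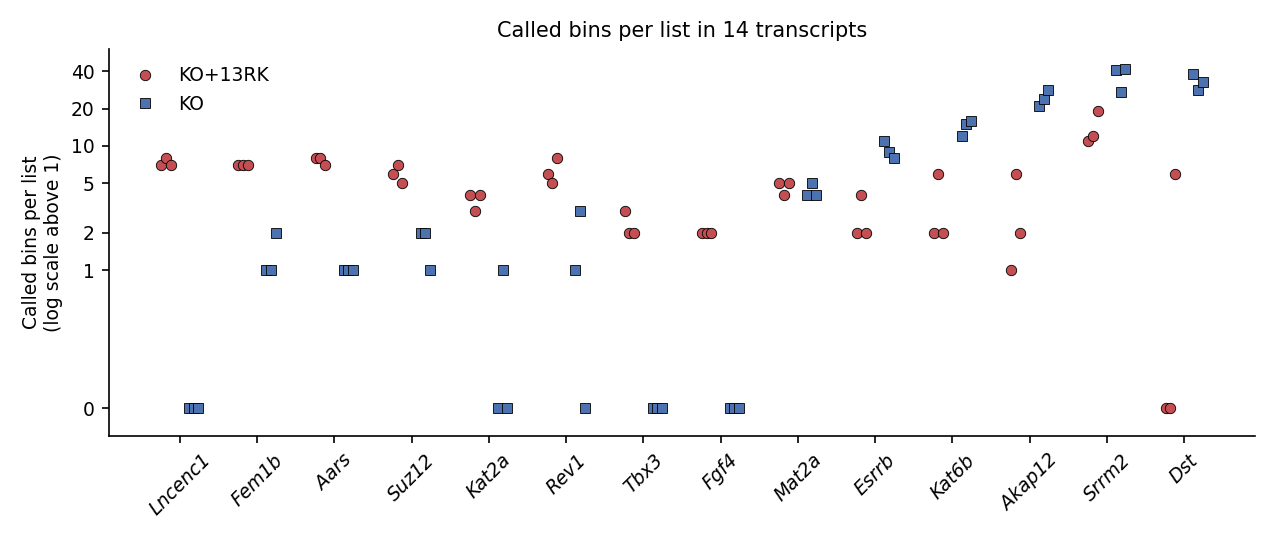
Called bins per list (log scale above 1, linear to 0) in 14 transcripts, with KO+13RK lists left of KO lists. Lncenc1, Fem1b and Aars have 7 or 8 bins in KO+13RK lists and 0 to 2 in KO lists, Mat2a has 4 or 5 in both lines, and Akap12 has 1 to 6 in KO+13RK lists and 21 to 28 in KO lists.

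Long noncoding RNAs had 7 of 17 measured members with a restored bin and 1 with a removed bin, beside 1366 and 523 of all 10547 genes. Members called per list numbered 13, 14 and 12 in KO+13RK and 8, 6 and 9 in KO, and genes of all kinds were also more numerous in each KO+13RK list. Lncenc1, a noncoding RNA of naive stem cells, had 7, 8 and 7 bins in KO+13RK and none in KO. Its 6 restored bins lay on chromosome 13, 1843.5 to 3143.5 nt from the gene end, and it had 5 to 8 bins in every list of the other 3 lines. Meg3, a maternally expressed imprinted RNA, had 3, 2 and 1 bins in KO+13RK and none in KO. Malat1, an abundant nuclear RNA, had overlapping numbers, with 19, 22 and 20 bins in KO+13RK and 21, 22 and 23 in KO, 16 of them the same bins in all 6 lists.

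DNA repair is the function named in the series title. In the interstrand crosslink repair list, 3 of 38 measured genes were restored and 1 removed, beside 5.22% restored and 1.62% removed over all genes. Of the 38, 8 had a restored bin (21.1%) and 3 a removed bin, beside 1366 (13.0%) and 523 of all 10547 genes. Members called per list numbered 21, 21 and 24 in KO+13RK and 11, 17 and 12 in KO, without overlap, as were the numbers of all genes called. Fancm, the translocase that recruits the Fanconi anaemia core complex, had 2, 1 and 6 bins in KO+13RK and none in KO. Wdr48, the partner of the deubiquitinase USP1, had 2, 2 and 1 in KO+13RK and none in KO, and Uhrf2, a ring finger protein, had 1, 2 and 3 and none. Rev1, a translesion DNA polymerase, had 6, 5 and 8 bins in KO+13RK, against 1, 3 and 0 in KO, with 4 restored bins called in every list of the other lines. Ube2t, the E2 enzyme that ubiquitinates FANCD2 and FANCI, was removed, with none in KO+13RK and 1, 1 and 2 in KO.

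Homologous recombination and end joining had 1 restored gene and none removed among 45, beside 5.22% and 1.62% of all genes. A restored bin lay in 12 of the 45 (26.7%) and a removed bin in 5, beside 1366 (13.0%) and 523 of all 10547 genes. Exo1, the exonuclease of end resection, had 1, 2 and 2 bins in KO+13RK and none in KO. Mdc1, a scaffold at marked breaks, had 7, 5 and 8 bins in KO+13RK, against 4, 3 and 3 in KO. Trp53bp1, which limits resection, had 2, 4 and 3 in KO+13RK, against 1, 0 and 0 in KO. Excision and mismatch repair had 2 restored genes and 1 removed among 45, beside 5.22% and 1.62% of all genes. A restored bin lay in 6 of these 45 (13.3%), near the 13.0% of all genes, and a removed bin in 3, beside 523 of all 10547. Mbd4, a glycosylase of T:G mismatches, had 2 bins in each KO+13RK list and none in KO, and the damage sensor gene Xpc had 1 in each KO+13RK list and none in KO. Apex1, the major apurinic endonuclease, went the other way, with none in KO+13RK and 2, 4 and 4 in KO. The restored shares in the 3 repair lists, 7.89%, 2.22% and 4.44%, lie around the 5.22% of all genes.

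**Figure D5:**
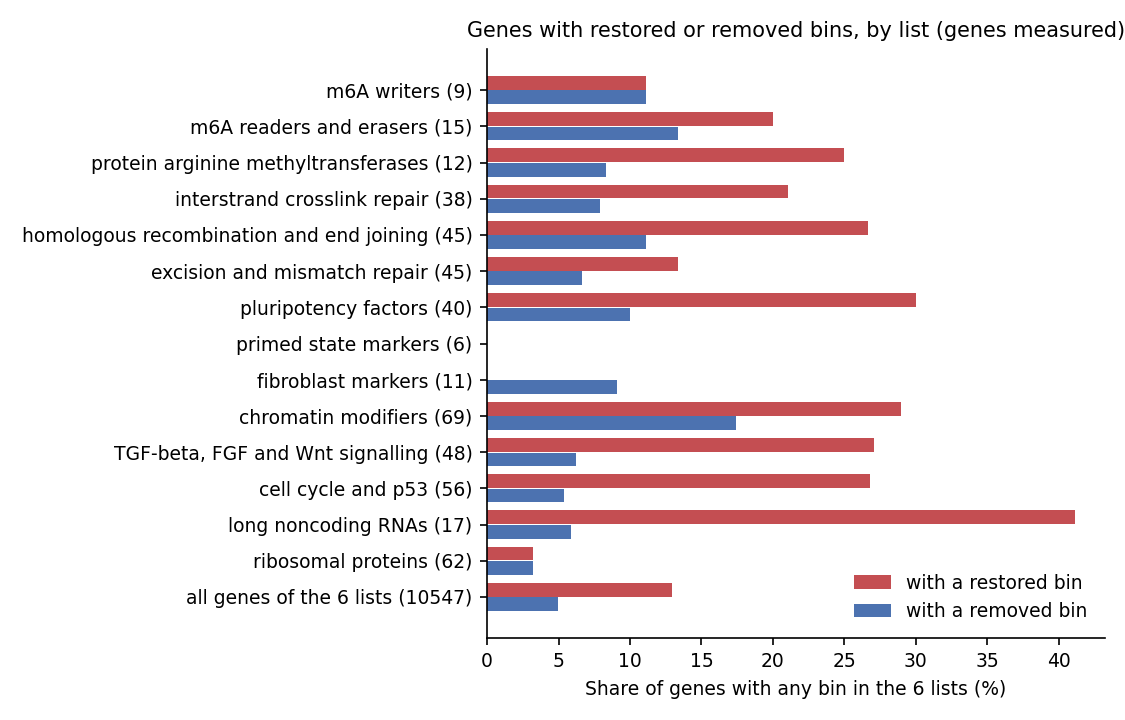
Share of measured genes (%) with a restored bin or with a removed bin in 14 gene lists and over all 10547 genes, with the number measured in parentheses. Long noncoding RNAs have 41.2% with a restored bin, primed state and fibroblast markers have 0, ribosomal proteins 3.23%, and all genes 13.0%.

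Pluripotency factors had a restored bin in 12 of 40 measured genes and a removed bin in 4. Of all 10547 genes, 13.0% had a restored bin and 523 genes had a removed bin. Restored genes were 3 (7.5%) and removed genes 1 (2.5%), beside 5.22% and 1.62% of all genes. Tbx3, a T-box factor, had 3, 2 and 2 bins in KO+13RK and none in KO, and its 2 restored bins were called in all 9 other lists, 1304.5 and 1404.5 nt from the gene end. Fgf4, the growth factor that signals for exit from the naive state, had 2 bins in each KO+13RK list and none in KO. Lin28a, which blocks let-7 processing, had 1 in each KO+13RK list and none in KO, but not at the same bin, so none of its bins was restored. It had none in KO+5RK, 2, 0 and 0 in KO+WT, and 2, 1 and 2 in WT. Dppa4 was removed, with none in KO+13RK and 2, 1 and 1 in KO. Esrrb, a nuclear receptor of the naive network, had fewer bins with 13RK, 2, 4 and 2 in KO+13RK against 11, 9 and 8 in KO, although 2 of its bins were restored. No Esrrb bin met the rule for removed. Nanog had 0, 6 and 4 bins in KO+13RK and 4, 2 and 4 in KO, Sox2 had 2 in each KO+13RK list and 3, 0 and 2 in KO, and these lists overlapped.

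Chromatin modifiers had 20 of 69 genes with a restored bin (29.0%, beside 13.0% of all genes) and 12 with a removed bin (beside 523 of all 10547). Restored genes were 2 of 69 (2.90%), under the 5.22% of all genes. Suz12, a core subunit of Polycomb complex PRC2, had 6, 7 and 5 bins in KO+13RK, against 2, 2 and 1 in KO, with 3 restored bins 1866.5 to 2066.5 nt from the gene end. Kat2a, a histone acetyltransferase, had 4, 3 and 4 in KO+13RK, against 0, 1 and 0 in KO. Chd4, the remodeller of the NuRD complex, was removed, with none in KO+13RK and 1, 2 and 1 in KO. In the signalling list, 4 of 48 genes were restored (Acvr1b, Fgf4, Smad2 and Sos1) and 2 removed, among them Grb2, which is 8.33% and 4.17% beside 5.22% and 1.62% of all genes. Acvr1b, a type I activin receptor, had 2, 3 and 2 bins in KO+13RK and none in KO, while Grb2, an adaptor of receptor tyrosine kinases, had none in KO+13RK and 1, 1 and 2 in KO.

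Cell cycle and p53 genes had 4 restored (7.14%) and none removed among 56, near the 5.22% and 1.62% of all genes. Restored bins lay in 15 of the 56 (26.8%), beside 13.0% of all genes. Aurkb, a mitotic kinase, had 2, 2 and 3 bins in KO+13RK and none in KO, and Orc2 of the origin recognition complex had 2, 3 and 2 and none in KO. Orc3 of the same complex, outside the list, had 7, 3 and 4 bins in KO+13RK and none in KO. Mdm2, the ubiquitin ligase of p53, had 3, 4 and 4 in KO+13RK, against 2, 1 and 1 in KO. Trp53, which encodes p53, held the removed bin with the highest rank of enrichment. That bin on chromosome 11, 69580360 to 69580459, centred 61.5 nt from the gene start, had the authors' enrichment values 2.91, 3.13 and 3.61 in the KO lists. It was called in 1 KO+5RK, 3 KO+WT and 3 WT lists, so 3 KO+13RK and 2 KO+5RK lists lacked it. The removed bins next in rank, in Sema6a, Zdbf2, Tmed7 and Tef, were called in no list of KO+5RK, KO+WT or WT. Trp53 as a gene was called in all 6 lists.

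Of 9 writer genes with a bin in the 6 lists, none was restored or removed, and Rbm15, an adaptor of the complex, had both a restored and a removed bin. Mat2a, which makes the methyl donor and carries known m6A hairpins, had 5, 4 and 5 bins in KO+13RK and 4, 5 and 4 in KO, 4 of them shared by all 6 lists. Mettl3 had none in KO+13RK and 0, 2 and 1 in KO. Mettl14 had no bin in any of the 6 lists, so neither the knockout nor the 13RK construct could be checked here. Of 15 readers and erasers only Igf2bp3, an RNA-binding reader, was restored (6.67%, beside 5.22% of all genes), with 1 bin in each KO+13RK list and none in KO. Of 12 arginine methyltransferase genes only Prmt3 was restored (8.33%), with 3, 2 and 1 bins in KO+13RK and none in KO. Ribosomal protein genes had a restored bin in 2 of 62 and a removed bin in 2, beside 1366 and 523 of all 10547 genes.

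A peak list does not report expression, so the labelled cell type could be checked only by which marker transcripts carry peaks. A bin in the 6 lists was found for 40 of 42 pluripotency genes, 6 of 14 primed state genes and 11 of 30 fibroblast genes. Fibroblast members called per list numbered 5, 1 and 3 in KO+13RK and 3, 5 and 5 in KO. Fn1, an extracellular matrix gene, had no bin in KO+13RK and 0, 2 and 3 in KO. It had 1, 0 and 1 in KO+5RK, 1, 3 and 1 in KO+WT, and 30, 23 and 23 in WT. Fbn1, the fibrillin gene, was removed, with none in KO+13RK and 1, 1 and 2 in KO. The part of other cell types, and of transcript levels, in any restored or removed call was not tested.

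Apart from a locus on chromosome Y, the genes with the most removed bins had many bins in KO and in WT. Akap12, a kinase anchoring protein, had 1, 6 and 2 bins in KO+13RK and 21, 24 and 28 in KO, 15 of them removed. Dst, the cytoskeletal linker dystonin, had 0, 0 and 6 in KO+13RK and 38, 28 and 33 in KO. Srrm2, a splicing coactivator, had 11, 12 and 19 in KO+13RK and 41, 27 and 42 in KO. Kat6b, a histone acetyltransferase, had 2, 6 and 2 in KO+13RK and 12, 15 and 16 in KO. In each of these genes every KO+13RK list lay below every KO list, which is no separate result, since they were chosen for their removed bins. WT lists held more still, 46 to 51 bins in Akap12 and 75 to 85 in Dst. KO+5RK lists varied widely, with 27, 18 and 3 bins in Akap12 and 26, 13 and 5 in Srrm2. Among removed genes with high ranks, Psme4, a proteasome activator, had none in KO+13RK and 2, 3 and 4 in KO, and Atp13a3, a polyamine transporter, had none in KO+13RK and 3 in each KO list.

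Single restored bins of high rank lay in Atp2c1, a Golgi calcium pump, and Ep300, a histone acetyltransferase. The Atp2c1 bin on chromosome 9, 105412840 to 105412939, lay 1527.5 nt from the gene end, with enrichment values of 3.32, 2.55 and 3.43 in the KO+13RK lists. The Ep300 bin on chromosome 15, 81651052 to 81651151, lay 975.5 nt from the gene end, with values of 2.97, 2.35 and 3.27. Both were called in all 9 lists of the other lines, as was the bin of Ccnh, the cyclin of CDK7. The bins of Zfp24 and Cdv3, which complete the 5 restored bins of highest rank, were called in 3 and 2 KO+5RK lists, 2 and 2 KO+WT lists, and 2 and 1 WT lists. Atp2c1 had 3, 2 and 3 bins in KO+13RK and none in KO, whereas Ep300 had 1, 2 and 4 bins in KO+13RK and 3, 2 and 2 in KO, and these numbers overlapped.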

How the data were processed

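The values were the authors' deposited peak lists, 1 per immunoprecipitated library. Per the labels' protocols, chemically fragmented mRNA was pulled down with a polyclonal antibody to m6A, and strand was kept in the libraries. STAR 2.5.3a, kallisto 0.43.0 and the build GRCm38 were used, per the submitters' processing notes. The lists carry the word clam in their names; no label or header says that this is the peak caller, or which settings were used. For each bin the deposited enrichment score, from 0.31 to 5.14 in the 6 lists, has no stated scale and served only to rank or filter bins of 1 list. Each bin's p-value and q-value, as deposited, served only as filters, and all q were at most 0.04999. No record ties a list to a library, so each was matched to the immunoprecipitated library whose title carries the same line and replicate number as the name of the list. Read depth is unknown and no counting interval can be given. A missing call is not the absence of m6A. The 15 input libraries were not analysed here.

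Calls were joined by coordinates and strand, and genes by the deposited gene name, with symbols for 99.7% of genes in the series. Distances used RefSeq spans (GRCm38.p6) matched by symbol. Tests were exact permutations in Python 3.11.15 (numpy 2.4.6, pandas 2.3.3), checked on simulated calls. The comparison, its rules and the gene lists were chosen with earlier results of these data known. Named genes were 10 genes of the m6A and pluripotency fields, up to 4 restored, 4 removed and 4 further genes with restored bins per list, the top 10 restored and removed genes by rank of enrichment, the 10 genes with the most restored and 5 with the most removed bins, and the top 5 bins of each kind. Alternatives were a q under 0.005, enrichment at or above the median, lists of equal length, each list left out, calls in 2 or more lists, merged bins, other distances, the replicate number as a block and, added after seeing the data, 4 loci left out. 1 removed gene of the signalling list is not reported here.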

Additional observations from a re-analysis of the deposited data

How the results depend on the processing

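Of 116 alternative values, 19 moved a count of restored or removed bins or genes by over 1.5 times and 1 reversed. For bins and genes per list and the shares by place, no setting could pass 0.05, so their p says nothing of stability. The reversed one was the number of bins per list with lists of equal length, a difference of -0.667, where the setting itself fixes the length. That setting gave 1317 restored bins, a difference of 92 genes per list in place of 901, and 11.2% in place of 22.9% of removed bins called in other lines. The difference in bins per list was 1199 with q under 0.005 and 1197 with the enrichment filter, in place of 2325. That in genes per list was 595 with the enrichment filter and 563 without the first KO list. With q under 0.005, 957 bins were restored and 378 removed. With enrichment at or above the median, 1.3, there were 476 restored bins, 196 removed bins and 332 restored genes. Calls in 2 or more lists gave 4696 restored and 2320 removed bins, and 1270 restored and 618 removed genes. Leaving out 1 list gave 2057 to 3099 restored bins, 788 to 1492 removed bins, 667 to 820 restored genes and 255 to 401 removed genes, since fewer lists must then meet the rule. Restored bins moved by over 1.5 times only without the second KO+13RK list, removed bins without any 1 KO list, and removed genes without any 1 list except the first of KO+13RK. The shares near the gene start and end and the calls in other lines kept their direction in every alternative tried, although the difference at the gene end was 8.36 percentage points within 1000 nt, in place of 14.3. With the replicate number as a block, the smallest exact sign-flip permutation p for 3 pairs is 0.25, which the 4 tested measures gave. For the counts, the same difference in every pair is the main rule itself. The block counts of 2017 restored and 670 removed bins were therefore fixed in advance. They say nothing of stability, although they are among the 116 alternatives. Correlations between lists with the same number (-0.00412, 0.0200 and -0.00632) lay within the range for other numbers (-0.0257 to 0.0289). Whether lists with the same number were prepared together was not tested. Depth is unknown, and calls missed in the shorter KO lists cannot be told apart from bins without m6A.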

Other observations

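Gm47283 on the Y chromosome had the most removed bins. It had no bin in the KO+13RK lists and 25, 23 and 23 in the KO lists, 22 of them removed. It also had none in any KO+5RK or KO+WT list and 25, 25 and 24 bins in the WT lists. The 22 removed bins spanned 90811239 to 90813938 and were 22 of the 30 chromosome Y bins in the 6 lists, and no chromosome Y bin was restored. Over the other chromosomes that hold restored bins, the restored share lay between 3.83% on X and 9.86% on 8, where Gm20388 lies. Without Gm20388, Fgfr2, Gm26904 and Gm47283, 1890 bins were restored and 637 removed.

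The lists of 1 line were themselves variable. The median Jaccard index, the bins in both lists over the bins in either, was 0.296 between KO+13RK lists, 0.264 between KO lists and 0.128 between the lines.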
